A study of Mus musculus with 34 samples.

Results

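The comparison set the H3K27ac of 2 reciprocal congenic lines of mouse embryonic stem cells against that of the 2 inbred lines they were derived from, over every region of the count table for that mark. The table held 248336 regions, and 192158 of them passed the filter on low counts and were tested. The samples were B6 (C57BL/6J, line B6 5-1), D2 (DBA/2J, line D2 5-5), B6-13D2 (B6.D2-(rs30079041-rs51756099)/Bakr, line QJ 6-1), which carries a D2 segment of chromosome 13 on the B6 background, and D2-13B6 (line XE 2-4), which carries a B6 segment on the D2 background. The labels of D2-13B6 give its segment as rs29224292-rs13469455, whereas the series text gives rs29224292-rs51756099, so the far end of that segment is not settled here. All lines were grown alike with serum, LIF, the MEK inhibitor PD0325901 and the GSK3 inhibitor CHIR99021, and none carried another allele or treatment per the labels. Each genotype was 1 line with 3 libraries that the labels call technical replicates. The p-values therefore measure the spread between libraries of a line and compare lines, not genotypes.

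H3K27ac is acetylation of lysine 27 of histone H3, laid down by the acetyltransferases EP300 and CREBBP at active promoters and enhancers and removed by histone deacetylases. In embryonic stem cells it marks the enhancers of the pluripotency network, many of which are bound by POU5F1 and SOX2. Because each congenic line carries the other strain's segment, the mean of the congenic lines minus the mean of the parental lines holds the same strain alleles on both sides wherever the 2 segments coincide and at every locus outside them. Where their ends on chromosome 13 differ, the alleles are not balanced. The contrast is 1/2 of the interaction of segment and background and has the same p-value. It asks where the segment changed the mark by a different amount, or in a different direction, in the B6 and the D2 background. A simple effect of the segment, equal in both backgrounds, cancels in it.

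Read counts in regions ranged from 8735674 to 11543469 over the 12 libraries. In each line, the counts of a pair of libraries did not differ beyond sampling noise, and the pair was counted as 1 sample, which left 2 samples per line. In D2 this held for replicates 1 and 3 (chi-square per degree of freedom of 0.954) and also for replicates 2 and 3 (1.005), and the pair with the lower value was summed. Replicate 1 of D2-13B6 stood apart from the other libraries of its line, with a chi-square per degree of freedom of 2.81 against replicate 2, where the other pairs of all lines lay between 0.905 and 1.03 except 2.79 against replicate 3. The swapped segment was visible in the data. In the window of chromosome 13 from 65 to 66 Mb the median of 161 regions was 4.59 higher in B6-13D2 than in B6 on the log2 scale, D2-13B6 minus D2 was -4.57, and the contrast was -0.03. The 10 embryonic stem cell markers, among them Pou5f1, Sox2 and Nanog, were all tested, had a median promoter level of 106 CPM (read counts scaled by library size), and 0 of them were called in the contrast. In bulk ChIP-seq, a larger share of cells with the mark and more of the mark per cell cannot be told apart.

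Central 300 bp of 4 regions are shown, 2 per direction, as examples of regions where both congenic lines lay on the same side of both parental lines. The sequences are those of the GRCm38 reference, read 5′ to 3′. Capitals mark matches to 1 of 7 short motifs searched on both strands: the SOX motif ACAATGG in Cep112 and the TEAD motif GGAATG in Syt2. The other motifs were the octamer ATGCAAAT, the ESRRB motif TCAAGGTCA, the KLF motif GGGTGTGG, the AP-1 motif TGANTCA and a core CTCF motif, and none of their letters were found in these 4 windows.
Ebf1 intron, higher in both congenic lines, chr11:44767572-44767871, plus strand: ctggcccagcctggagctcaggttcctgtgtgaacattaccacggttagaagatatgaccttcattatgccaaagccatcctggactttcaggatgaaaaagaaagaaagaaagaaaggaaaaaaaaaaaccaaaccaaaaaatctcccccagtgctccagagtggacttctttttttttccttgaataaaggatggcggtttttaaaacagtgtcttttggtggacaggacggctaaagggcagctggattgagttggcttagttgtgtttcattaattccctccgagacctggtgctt
Cep112 intron, higher in both congenic lines, chr11:108595477-108595776, plus strand: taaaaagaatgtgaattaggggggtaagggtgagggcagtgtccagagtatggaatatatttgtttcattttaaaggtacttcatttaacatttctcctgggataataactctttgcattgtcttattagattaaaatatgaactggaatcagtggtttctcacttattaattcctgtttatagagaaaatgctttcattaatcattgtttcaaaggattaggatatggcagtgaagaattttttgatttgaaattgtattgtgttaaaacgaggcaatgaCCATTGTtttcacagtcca
Intergenic region nearest to Ankrd50, lower in both congenic lines, chr3:38171811-38172110, plus strand: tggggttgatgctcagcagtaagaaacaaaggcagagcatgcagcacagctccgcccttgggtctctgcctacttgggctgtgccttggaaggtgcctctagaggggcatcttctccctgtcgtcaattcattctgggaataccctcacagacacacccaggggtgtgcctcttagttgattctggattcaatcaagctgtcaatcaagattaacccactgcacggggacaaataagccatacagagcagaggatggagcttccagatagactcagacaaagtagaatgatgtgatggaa
Syt2 intron, lower in both congenic lines, chr1:134704793-134705092, plus strand: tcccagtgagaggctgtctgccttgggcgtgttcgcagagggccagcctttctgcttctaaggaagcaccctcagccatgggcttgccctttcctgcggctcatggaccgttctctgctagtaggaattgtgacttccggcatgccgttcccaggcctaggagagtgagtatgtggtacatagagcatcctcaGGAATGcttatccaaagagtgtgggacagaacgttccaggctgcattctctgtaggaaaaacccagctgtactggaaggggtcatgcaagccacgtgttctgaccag

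H3K27ac was called different in 10176 of the 192158 tested regions, which is 5.3% (edgeR quasi-likelihood test, adjusted p under 0.05). The congenic lines were higher in 7546 (3.93%) and lower in 2630 (1.37%). The median difference was 0.58 in the higher regions and -0.79 in the lower ones on the log2 scale. A difference of at least 1 on that scale was present in 1375 called regions, of which 630 were higher and 745 lower. The share of calls that were higher, 74.2% with TMM scaling, was 48.7% with library totals, 54.8% with upper quartile scaling and 56.4% once the level trend of each library was removed. It was 79.2% with median-of-ratios scaling, 76.9% with TMM within each chromosome, 78.7% with the GC trend removed and 91.4% with DESeq2, so the excess of higher calls moved with the scaling and the tool. Leaving out replicate 2 of D2 left 4401 calls, leaving out replicate 1 of D2-13B6 gave 22495, leaving out replicate 3 of B6 gave 6229, and DESeq2 called 5369.

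Most regions called in the contrast passed the test in 1 background and not in the other. This does not show that congenic minus parental differed in size between the backgrounds there. B6-13D2 differed from B6 in 24973 regions (13% of those tested), with 14601 higher (7.6%) and 10372 lower (5.4%), and D2-13B6 differed from D2 in 12824 (6.67%), with 10065 higher (5.24%) and 2759 lower (1.44%). These contrasts share no library, and both counts moved with the libraries left out and with the tool, as given below. Of the 7546 regions higher in the congenic lines, 4256 were called higher in the B6 background alone, 1742 in the D2 background alone, 643 in both and 678 in neither. Of the 2630 lower regions, 1417 were called lower in the B6 background alone, 432 in the D2 background alone, 142 in both and 576 in neither. Of the regions called in both backgrounds, congenic minus parental had opposite signs in 4323 and the same sign in 785. The swap is reversed in the D2 background. Opposite signs therefore put the line with the D2 segment on the same side in both backgrounds. The contrast averages both backgrounds, which favours regions with equal signs: the differences in the 2 backgrounds had the same sign, called or not, in 81.4% of the higher and 87.9% of the lower calls, against 47.4% of all tested regions.

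**Figure D1:**
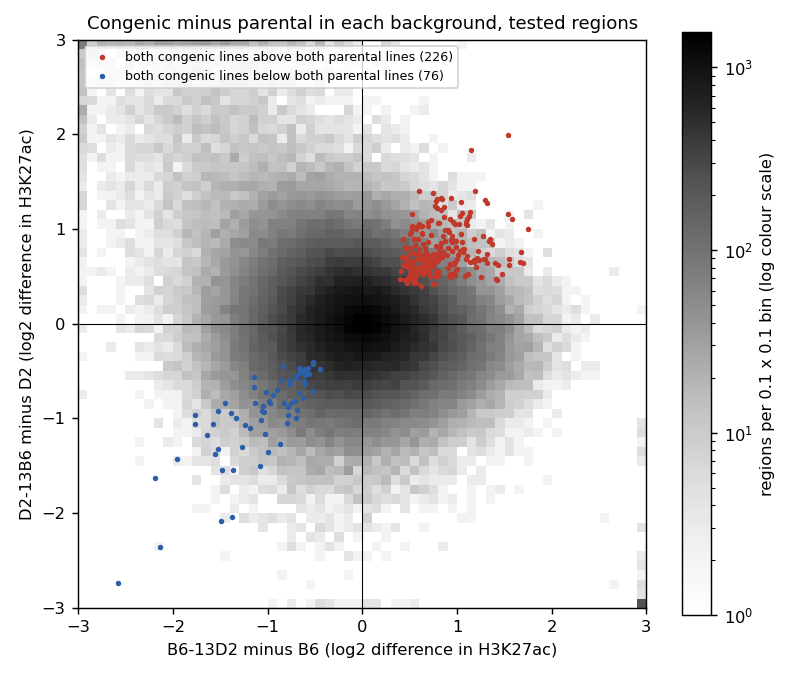
Log2 difference in H3K27ac between congenic and parental line in the D2 background (vertical axis) against that in the B6 background (horizontal axis), with the number of tested regions per bin in grey on a log colour scale and values beyond 3 drawn at the edge. The 226 red points, regions with both congenic lines above both parental lines, lie in the upper right, and the 76 blue points, the reverse, in the lower left.

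To separate a state shared by the congenic lines from a single line that stood apart, all 6 pairs of lines were compared. Both congenic lines lay above both parental lines in 226 regions (0.118% of those tested) and below both in 76 (0.0396%). With library totals there were 229 above and 164 below, and with median-of-ratios scaling 226 and 47. The excess of regions above thus moved with the scaling. These counts were 55 and 18 without replicate 2 of D2 and 424 and 129 without replicate 1 of D2-13B6. In contrast, a single line passed the test against each of the other 3, with no pair of those 3 passing it, in 11964 regions (6.23%). With 2 samples per line this does not show that the other 3 were equal: in a region near Gm3106 with B6 alone above, D2-13B6 minus D2 was -1.61 on the log2 scale, with means of 0.342 and 1.01 CPM. B6 was the line apart in 5158 of them, above in 1458 and below in 3700. B6-13D2 was apart in 3401, with 2442 above and 959 below, and D2-13B6 in 2432, with 2138 above and 294 below. D2 stood apart least often, in 973 regions, with 267 above and 706 below. The count of D2 was 388 without its replicate 2, and that of B6 was 2916 without its replicate 3. Of the 10176 calls of the contrast, 3518 (34.6%) had 1 line apart, 302 (2.97%) had both congenic lines apart and 6356 had neither pattern.

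**Figure D2:**
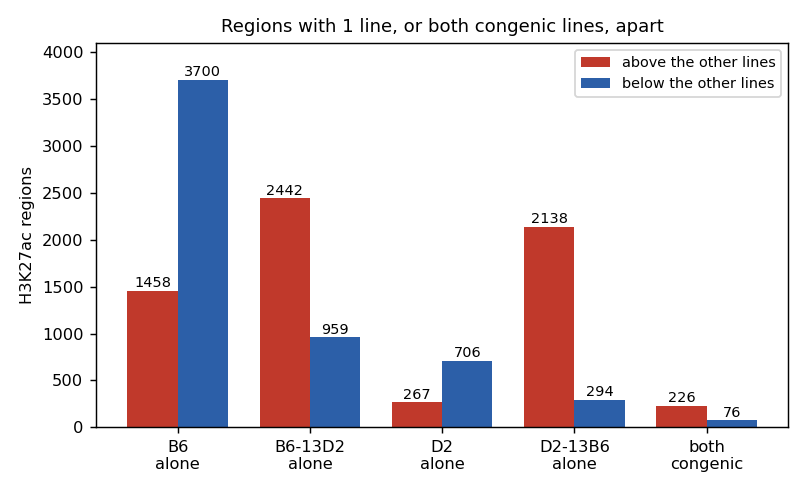
Number of H3K27ac regions (vertical axis) in which 1 line, or both congenic lines, lay above (red) or below (blue) all other lines. B6 below the others was the most frequent pattern, with 3700 regions, and the bars of both congenic lines, 226 and 76, are the lowest pair.

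Of the 226 regions with both congenic lines above, 5 were at promoters (2.21%), 31 in exons (13.7%), 79 in introns (35%) and 111 between genes (49.1%). The shares over all tested regions were 9.25%, 13.2%, 40.1% and 37.5%. Their median distance to a start site was 60.6 kb against 26.5 kb for all tested regions. Their median level was 11.9 CPM against 1.51 CPM for all tested regions, and their median GC content was 43% against 48.3%. These traits were shared with other classes: all regions called higher had medians of 38.2 kb, 8.89 CPM and 44.8% GC, and 1.84% of regions with D2 alone below were at promoters, against 2.21% here. In 215 of them every congenic library lay above every parental library, which follows in large part from how they were chosen. Over all tested regions this held in 1275 (0.664%). Chromosome 11 held 41 of the 226 and 12935 of the 192158 tested regions, and chromosome X held 15 and 4427.

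The best-covered region named in this class was one of 1313 bp in an intron of Ebf1, a transcription factor of early B cell development, at chr11:44767066-44768378. It held 6.07 and 7.06 CPM in the B6 samples, 15.8 and 15.8 in B6-13D2, 11.3 and 9.89 in D2, and 26.1 and 27.1 in D2-13B6. Every congenic sample was above every parental sample, and the congenic line was higher by 1.29 in the B6 and 1.31 in the D2 background on the log2 scale. The contrast was 1.30 ± 0.11 (SE, adjusted p = 4.32e-10). A region in an intron of Cep112, a centrosomal protein gene, at chr11:108595033-108596221 held 4.91 and 4.7 CPM in B6, 11.5 and 10.5 in B6-13D2, 3 and 2.61 in D2 and 7.83 and 7.32 in D2-13B6. The groups did not overlap, and the contrast was 1.29 ± 0.14 (SE, adjusted p = 6.02e-08). 

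A region 1670 kb from Cdh20, a cadherin gene, at chr1:103093837-103094608 held 1.4 and 1.23 CPM in B6, 4.28 and 4.89 in B6-13D2, 1.39 and 1.48 in D2, and 2.03 and 3.38 in D2-13B6, a contrast of 1.37 ± 0.21 (SE). An intron region of Lcmt1, which methylates the catalytic subunit of protein phosphatase 2A, at chr7:123395903-123396262 had a contrast of 1.35 ± 0.22, and a region 810 kb from Pcdh7, a protocadherin gene, at chr5:58943472-58943978 one of 1.34 ± 0.22 (SE). The promoter of Xlr3a on chromosome X had the highest contrast of the class, 1.76 ± 0.24 (SE, adjusted p = 3.29e-06), with 1.2 and 0.784 CPM in B6, 3.26 and 2.86 in B6-13D2, 0.556 and 1.59 in D2 and 4.17 and 3.33 in D2-13B6. Xlr3a belongs to a family of near-identical copies, so its reads could be divided among them, and the promoter of its relative Xlr3b was high in D2-13B6 alone, at 6.23 ± 1.1 CPM (SD, n = 2) against means of 0.975 to 1.8 CPM in the other lines. The promoter of Fhit, which hydrolyses diadenosine triphosphate, was higher in both congenic lines as well, with means of 3.45 ± 0.29 CPM in B6, 11.4 ± 0.2 in B6-13D2, 7 ± 0.71 in D2 and 10.7 ± 0.48 in D2-13B6 (SD, n = 2) and a contrast of 1.17. The other promoters of this class were those of Qser1, Ccnjl and Gm4756, with contrasts of 0.434, 0.626 and 0.69.

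Of the 76 regions with both congenic lines below, 19 were at promoters (25%, against 9.25% of all tested regions), 17 in exons, 25 in introns and 15 between genes. Copies of repeated arrays made up 18 of these 19 promoter regions, 15 on chromosome 9 and 3 at AW822073 and Duxf3, and the other was at Col13a1. The 76 regions had a mean repeat-masked share of 39.2% against 25.7% for all tested regions. Of the 21 regions of this class on chromosome 9, 18 lay in its first 4 Mb, at assembled copies of a repeated array with the predicted genes Gm10722, Gm11168, Gm10719, Gm10718, Gm10717 and Gm10715. Their contrasts at promoters were from -0.465 to -0.637, and near-identical copies share reads there, so these regions are not independent. All 9 regions of this class on chromosome 11 lay together at Sfi1 and Drg1, from base 3122420 to 3212785, with contrasts from -0.538 to -0.852. Another group lay on chromosome 10 at 58.2 Mb, described below with Duxf3. Leaving out the regions of chromosome 9 below 4 Mb gave 10174 calls in the whole contrast.

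Outside these clusters, an intergenic region 277 kb from Ankrd50, an endosomal recycling gene, at chr3:38171579-38172344 held 4.36 and 3.92 CPM in B6, 1.21 and 0.831 in B6-13D2, 2.72 and 2.73 in D2 and 1.02 and 0.999 in D2-13B6. Every congenic sample was below every parental sample, with a contrast of -1.69 ± 0.21 (SE, adjusted p = 1.17e-06). In an intron of Syt2, a calcium sensor of vesicle release, at chr1:134704382-134705505, the values were 2.76 and 3.02 CPM in B6, 0.931 and 0.646 in B6-13D2, 3.45 and 2.84 in D2, and 2.13 and 1.17 in D2-13B6, a contrast of -1.42 ± 0.23 (SE). An exon of Grk4, a kinase of G protein-coupled receptors, at chr5:34751512-34751920 had a contrast of -1.47 ± 0.25. The regions near Tmc3, Ccdc112 and in Fubp3 had contrasts of -1.41, -1.37 and -1.32. Their levels were low, at most 5.26 CPM in any sample, so that each rests on few reads.

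**Figure D3:**
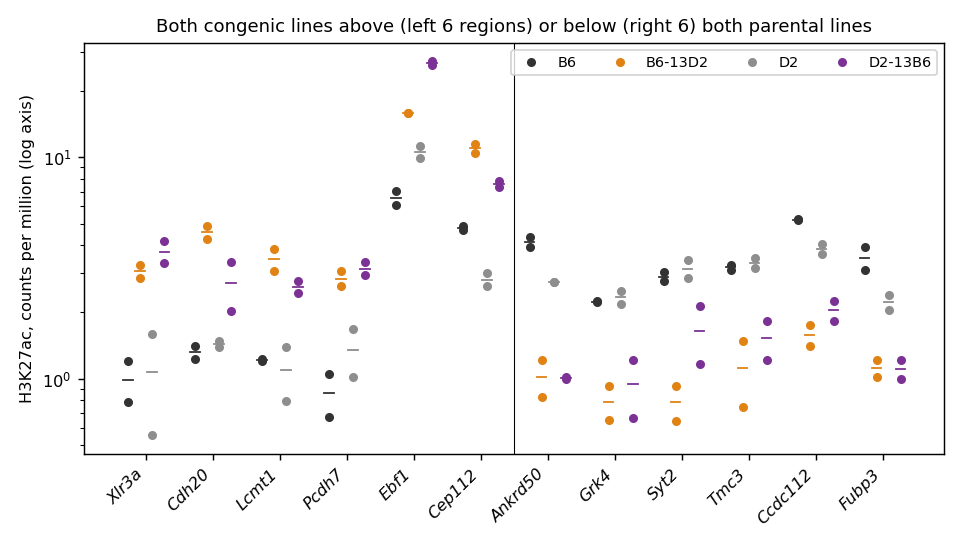
H3K27ac level in CPM on a log axis (vertical) of each sample of B6, B6-13D2, D2 and D2-13B6 in 12 regions (horizontal), each dot a sample and each dash the mean of 2 samples. In the left 6 regions, from Xlr3a to Cep112, all orange and purple congenic dots lie above the black and grey parental dots, and in the right 6, from Ankrd50 to Fubp3, all lie below.

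Of the regions where 1 line stood apart, B6 below the others was the most frequent pattern. At 3700 regions B6 lay a median of 1.08 below B6-13D2, and the contrast had a median of 0.49. An example is an intron region at chr13:67626813-67627255, shared by Gm49345 and Zfp729a, with 1.05 and 1.12 CPM in B6, 6.52 and 7.94 in B6-13D2, 6.11 and 5.91 in D2 and 5.49 and 5.83 in D2-13B6. Other libraries of the same line, made with another antibody and set against 2 sister lines of B6, bear on these regions. At the 2115 of them that overlapped a region of that table, line B6 5-1 differed from the mean of B6 4-1 and B6 4-4 by a median of -0.01. The D2 minus B6 difference there was a median of 0.19 over the separate lines, against 0.89 in the repeated libraries at the same regions. D2 was above B6 in the separate lines at 74.1% of them, against 50.7% of all overlapping regions. The repeated value was used to choose the regions and the antibodies differ, so the sizes are given side by side only. At regions with B6 alone above, the medians were -0.57 in the separate lines and -1.3 in the repeated libraries. At regions with D2 alone below, the medians of D2 minus B6 were -0.55 in the separate lines and -0.98 in the repeated libraries. Other classes differed in sign: the medians were -0.073 and 0.21 at all regions called higher, and -0.2 and 0.021 at regions with both congenic lines above, where D2 was above B6 in the separate lines at 21.6%.

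Single regions show the other patterns. At the promoter of Stab2, a scavenger receptor for hyaluronan, at chr10:87007764-87008267, D2 held 7.89 and 6.71 CPM, whereas B6 held 0.501 and 0.224, B6-13D2 0.466 and 0.185 and D2-13B6 0.305 and 0.166. The D2 line alone carried the mark, and the difference from the D2-13B6 line makes it one of the largest in the contrast (adjusted p = 3.09e-05). In the table of separate lines D2 5-5 differed there from the mean of its sisters by -0.01. An intron of Celf2, a splicing factor gene, at chr2:7403654-7404168 was marked in B6-13D2 alone, with 4.19 and 3.88 CPM against 0.224 to 0.915 in the samples of the other lines. An intron of Serpina3m, a serine protease inhibitor gene, at chr12:104378780-104379229 was low in D2 alone, with 3.61 and 3.64 CPM against 15 to 21.1 in the others. The regions named for D2-13B6 below the others, near Olfr161, were not stable: at chr16:3299884-3300246 the contrast went from -1.08 to -0.29 without replicate 1 of D2.

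The regions with D2-13B6 alone above the others were rich in repeats. Their mean repeat-masked share was 49.2% and 910 of 2138 (42.6%) were over 50% masked, against 16.4% of all tested regions. H3K9me3, a mark of heterochromatin and of silenced transposons, was measured in other libraries of the same 4 genotypes and was not used in choosing these regions. At the 809 of the 910 masked regions that were tested for H3K9me3, D2-13B6 lay a median of 0.68 below D2 on the log2 scale, with 105 regions called lower and 0 called higher (adjusted p under 0.05 in edgeR), and 86.2% below 0. Over all 19067 such masked regions tested, the median was -0.16, with 1012 called lower and 63 higher, and it ran from -0.086 to -0.23 without 1 H3K9me3 library at a time. The mean H3K9me3 level at the 809 regions was 6.69 CPM in D2-13B6, 11 in D2, 11.8 in B6 and 12.9 in B6-13D2. At the remaining regions of the pattern, those at most 50% masked, the median was 0.02. The median stayed between -0.58 and -0.78 without any single H3K9me3 library, and it was -0.51 when the H3K27ac pattern was called without replicate 1 of D2-13B6, the library that stood apart. Reads of repeats are placed less surely than others, and both lines of the D2 background were lower in H3K9me3 over all masked regions, at 9.58 and 8.16 CPM against 11.4 and 11.9 CPM in B6 and B6-13D2.

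Some repeat-masked regions with a high level in D2-13B6 were not in the class of 1 line apart. Near Med10 and Cpxcr1 the contrasts were 2.6 and 2.05, with means of 15.2 and 18.4 CPM in D2-13B6 and at most 1.32 CPM in the other lines. At chr9:79901262-79902147, a region that is 98.5% repeat-masked in an intron of Filip1, D2-13B6 held 28 CPM on average and the other lines 1.21, 0.277 and 0.337. At chr3:91098998-91099538, fully repeat-masked and 8.2 kb from 9130204L05Rik, the mean of D2-13B6 was 19.4 CPM and those of the others from 0.282 to 1.12.

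In the same contrast, H3K9me3 itself was called in 338 of 86874 regions (0.389%), 64 higher (0.0737%) and 274 lower (0.315%). These counts moved with the libraries left out and with the tool, as given below. Of the 64 higher regions, 31 lay on chromosome 13 from 68 to 69 Mb. The window from 68 to 69 Mb also held the highest share of H3K27ac calls among windows of 1 Mb with at least 50 tested regions, 44.4%, with 24 higher and 4 lower. Both marks were called in 78 regions, of which 48 were higher in H3K27ac and lower in H3K9me3, 25 were higher in both, 3 were lower in H3K27ac and higher in H3K9me3, and 2 were lower in both. H3K9me3 calls stood at 1.64% of the tested regions with higher H3K27ac and at 0.323% of those with lower H3K27ac, against 0.425% of all.

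By level and base composition the calls were uneven. Among regions under 1 CPM, 0.175% were higher and 0.615% lower, with a median difference of -0.15. At 32 CPM or more, 16.2% were higher and 1.54% lower, with a median of 0.10. Regions with a GC content under 40% had a median difference of 0.23 and 9.95% higher, whereas those from 55 to 60% had a median of -0.12 and 1.2% higher. Over all regions under 40% GC, called or not, the median difference was 0.28 in the B6 and 0.14 in the D2 background. With the GC trend of each library removed, 121 regions had both congenic lines above. What moved these trends was not tested. Among motif matches in central 300 bp windows, the octamer was present in 4.15% of higher, 1.41% of lower and 3.03% of all tested regions, the SOX motif in 9.28%, 4.37% and 6.08%, and the KLF motif in 3.86%, 7.53% and 5.96%. In the same order of classes, the ESRRB motif was present in 1.5%, 2.21% and 1.55%, the AP-1 motif in 15.8%, 10.5% and 13.6%, the TEAD motif in 19.3%, 22.1% and 20.1%, and the CTCF motif in 0.716%, 1.63% and 1.68%. The KLF motif is GC-rich and the octamer is AT-rich, and base composition differed between the same classes, with a median GC content of 44.8% in higher and 51% in lower regions.

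**Figure D4:**
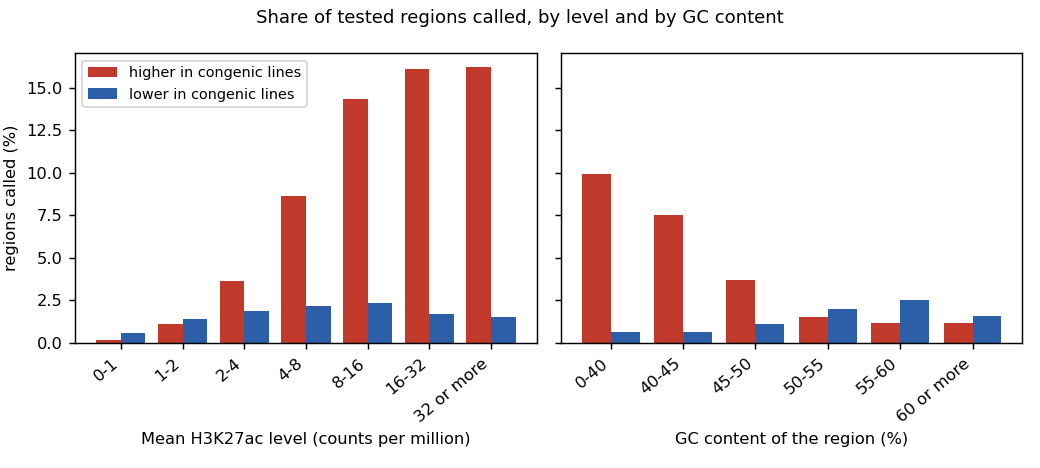
Percentage of tested regions called higher (red) or lower (blue) in the congenic lines (vertical axis) by mean level in CPM (left panel) and by GC content (right panel). Higher calls go from 0.175% to 16.2% with level and are most frequent under 40% GC, at 9.95%.

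By chromosome, the median difference lay between -0.05 and 0.03 on the 17 chromosomes other than 11, 13, X and Y. It was 0.10 on chromosome 11, where D2-13B6 lay 0.29 above D2 and B6-13D2 0.12 below B6, and 8.09% of its regions were called, 958 of 1047 of them higher. On chromosome X it was 0.15, with differences of 0.09 and 0.15 in the B6 and D2 backgrounds. On chromosome 13 it was -0.06, with 0.02 and -0.20. On the 17 other chromosomes these differences ran from -0.13 to -0.002 in the B6 and from -0.0451 to 0.0366 in the D2 background. On chromosome 11 only that of the D2 background lay outside these ranges. Chromosome 11 held 443 of the 2138 regions with D2-13B6 alone above and 12935 of the 192158 tested regions. Off chromosomes 11, 13, X and Y there were 8300 calls, 5931 higher and 2369 lower. The share of regions called there ran from 4.49% to 5.54% by chromosome, near the 5.3% of all tested regions.

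At promoters, 16189 genes had a tested region, and the region with the highest level was taken for each. Of these, 3.67% were called, 2.55% higher and 1.12% lower, with a median difference of 0.00. The lists below were read against these shares.

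Genes of the 2-cell-like state, a transient state of embryonic stem cells that resembles the embryo at genome activation, had 10 of 24 members tested, and 5 were lower and 0 higher, with a median of -0.69. In the B6 background 5 were lower and 0 higher, with a median of -0.97. In the D2 background 1 was lower and 1 higher, with a median of -0.32. Duxf3, which encodes the transcription factor that opens this program, held 32.9 and 34.5 CPM in B6, 14.4 and 19.5 in B6-13D2, 34.3 and 33.8 in D2 and 26 and 16.4 in D2-13B6. Both congenic lines lay below both parental lines there, with a contrast of -0.87 ± 0.11 (SE, adjusted p = 1.54e-06), and the neighbouring promoter regions of AW822073 gave -0.987 and -0.848. Zscan4d, a telomere-associated zinc finger gene of this state, was lower by contrast at -0.69 ± 0.18, with 4.21 and 5.04 CPM in B6 and 1.94 to 3.06 CPM in the samples of the other lines, so that B6 alone was above. Usp17la, a deubiquitinase gene, was at 2.16 and 2.91 CPM in B6, 0.885 and 1.2 in B6-13D2, 1.89 and 1.82 in D2 and 1.22 and 0.943 in D2-13B6, without overlap of the groups. Obox6, an oocyte homeobox gene, was lower in the line with the D2 segment in both backgrounds. It went from 18.9 and 20.6 CPM in B6 to 0.745 and 1.48 in B6-13D2, and from 4.5 and 5.8 in D2 to 24.3 and 26.1 in D2-13B6. Its contrast of -0.97 is the balance of these changes, and no state common to the congenic lines. Gm5662 was lower by -0.50. All are members of multicopy families whose reads can be divided among copies. Under the alternatives the count of lower members was from 1 with a difference of at least 1 required, and 2 with DESeq2, to 6.

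Genes that respond to MEK-ERK and WNT signalling, the pathways that the inhibitors in the medium act on, had 25 of 25 members tested, with 7 higher and 0 lower and a median of 0.20. The higher members were 6 with TMM within each chromosome. They were 4 without the regions of chromosome 11, which also takes out any members on it. On that chromosome D2-13B6 lay 0.29 above D2 over all regions. Ccnd1, the gene of cyclin D1, rose from 9.73 and 10.4 CPM in B6 to 20.5 and 18.9 in B6-13D2, and from 24 and 20.5 in D2 to 33 and 33 in D2-13B6, a contrast of 0.77 ± 0.10 (SE, adjusted p = 2.57e-06). Sp5, a transcription factor gene induced by WNT, was at 10.4 ± 0.34 CPM in B6, 20.1 ± 1.4 in B6-13D2, 24.4 ± 1 in D2 and 33.5 ± 0.5 in D2-13B6 (SD, n = 2), a contrast of 0.69 ± 0.10 (adjusted p = 1.01e-05). At both genes the order was B6, B6-13D2, D2 and D2-13B6, so that B6-13D2 did not exceed D2 and the congenic and parental samples overlapped. Notum, a secreted WNT deacylase, held 56.3 and 64.3, 78 and 73.2, 96.9 and 83.6, and 135 and 131 CPM in the same order of lines, a contrast of 0.45 ± 0.09. Spred2, an inhibitor of RAS signalling, had a contrast of 0.38, and Axin2, a feedback inhibitor of WNT, Myc and Dusp6, an ERK phosphatase, had 0.38, 0.36 and 0.32. Without replicate 2 of D2 the list had 3 higher members, without replicate 3 of B6 4, and 13 with the GC trend removed.

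**Figure D5:**
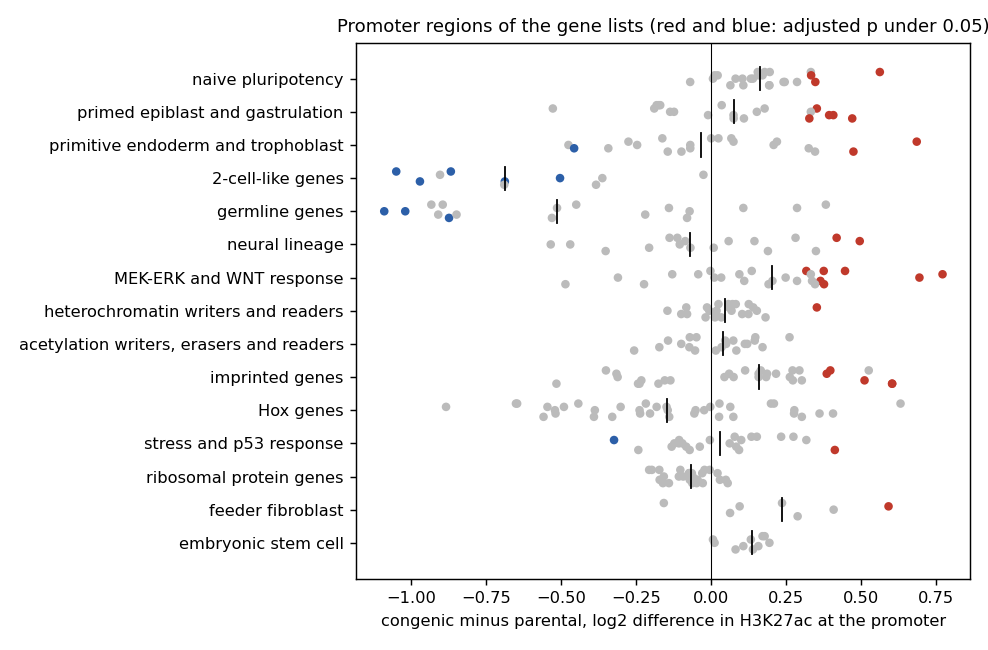
Difference in H3K27ac at the promoter between congenic and parental lines (horizontal axis, log2) of the tested members of 15 gene lists (vertical axis), with dots in red where higher and blue where lower at an adjusted p under 0.05 and a black line at the median. The 2-cell-like genes lie to the left of 0 with a median of -0.69, and the MEK-ERK and WNT response genes have 7 red dots.

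Among the naive pluripotency genes, 3 of 24 were higher and 0 lower. Nr0b1, a nuclear receptor gene of the network, was higher in D2-13B6 alone, with 41 and 47.2 CPM against 19.6 to 29.1 CPM in the other samples and a contrast of 0.56 ± 0.10 (SE). Nr5a2 was higher in B6-13D2 alone, with 92.3 and 87.9 CPM against 50.6 to 65.5 in the others, and Prdm14 had a contrast of 0.35. Of the primed epiblast and gastrulation genes, 5 of 20 were higher and 0 lower. Dnmt3a, a de novo DNA methyltransferase, was lower in the line with the D2 segment in both backgrounds. It held 52.9 and 55.1 CPM in B6, 26.3 and 24.7 in B6-13D2, 24.5 and 21.5 in D2 and 79.3 and 79.9 in D2-13B6. The contrast was 0.35 ± 0.09. Otx2, a factor of the primed state, rose in B6-13D2, with 12.9 and 11.7 CPM against 4.51 and 4.7 in B6, and not in D2-13B6, with 7.12 and 4.88 against 8.61 and 7.5 in D2. Zic2, Lefty1 and Zic5 had contrasts of 0.41, 0.39 and 0.33.

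Of the primitive endoderm and trophoblast genes, 2 of 20 tested were higher and 1 lower. Cdx2, a trophoblast factor and WNT target, held 4.71 and 4.14 CPM in B6, 7.12 and 8.68 in B6-13D2, 9.95 and 11.4 in D2 and 16.4 and 15.4 in D2-13B6, a contrast of 0.69 ± 0.13 (SE). Tfap2c was higher, at 0.47, and Tead4 lower, at -0.46. Of 17 germline genes tested, 3 were lower and 0 higher: Mael, of the piRNA pathway, at -1.09, Sycp1, of the synaptonemal complex, at -1.02 and Dpep3 at -0.87, all at no more than 2.71 CPM in any sample. In the B6 background 4 germline genes were lower and 0 higher, with a median of -0.78. In the D2 background 0 were lower and 1 higher, with a median of 0.0039. Among 17 neural genes, Pax6 and Ncam1 were higher, at 0.49 and 0.42. Of 31 imprinted genes tested, 5 were higher, at 4 promoter regions: Peg10 and Sgce, which share a region, at 0.60, Plagl1 at 0.51, Zrsr1 at 0.40 and Mest at 0.385. In the B6 background 7 imprinted genes were higher and 0 lower, with a median of 0.24. In the D2 background 0 were called, with a median of 0.036. In the stress and p53 list Trib3 was higher, at 0.41, and Cdkn1a, the gene of the cell cycle inhibitor p21, lower, at -0.32. Cdkn1a was at 63.8 and 77.2 CPM in B6, 29.3 and 25.2 in B6-13D2, 62.3 and 59.1 in D2 and 91 and 106 in D2-13B6. The line with the D2 segment was thus the lower in both backgrounds. Among heterochromatin genes Dnmt3a was the 1 called. Of 20 acetylation genes, 37 Hox genes and 30 ribosomal protein genes tested, 0 were called.

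Of the 10 feeder fibroblast markers, 7 were tested and Col1a2 was higher, at 0.59, while Col3a1, Lum and Postn did not pass the filter. The summed promoter level of the list was 13 CPM in B6, 23.8 in B6-13D2, 37.3 in D2 and 28.9 in D2-13B6, so it was lowest in B6, the line most often apart. Its part in the contrast was not tested.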

How the data were processed

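Counts of reads per region were deposited by the authors; per the submitters' processing notes the tools named were Trimmomatic 0.39, HISAT2 2.2.1, MACS 1.4.2, bedtools 2.9.2 and edgeR, on mm10, with no order or settings. Region starts in the files were read as counted from 0. Genes and parts of genes came from GENCODE release M21 and sequence and repeat masking from GRCm38.p6. Pairs of libraries were compared by chi-square over regions holding 40 or more counts together, and the pair of each line with the lowest value and no difference beyond sampling noise was summed (n = 2 per line); no H3K9me3 pair was. Regions passing filterByExpr (minimum count 10, minimum total 15) were tested in R 4.3.3 with edgeR 4.0.16 (TMM, quasi-likelihood test, two-sided, Benjamini-Hochberg). DESeq2 1.42.0 was an alternative. Simulated H3K27ac counts for the 192158 regions recovered 83 of 100 changes of 2-fold and 100 of 100 of 4-fold, with 13 false calls. The changes were placed only in regions with a mean of at least 20 counts. All regions had the same simulated spread, and the lines were alike elsewhere. These shares therefore do not hold for weaker regions or for the real spread. Regions named were the 6 largest per direction with both congenic lines apart, non-overlapping libraries and at least 2 CPM in the higher lines, and 2 per line and direction. In lists, up to 4 called members were named, with further called members also given. Filip1, 9130204L05Rik, Med10, Cpxcr1, Fhit and Xlr3b were chosen after their values were seen. The members and lists were chosen with earlier results of these data known. No test was made of lists. The 2 columns that matched no sample were not used.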

Additional observations from a re-analysis of the deposited data

Results flagged for a closer look

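The effect of the chromosome 13 segment differed between the B6 and the D2 background in 10176 H3K27ac regions and in 338 H3K9me3 regions, by the test of the difference itself (edgeR interaction of segment and background, adjusted p under 0.05). Each genotype was 1 line, so line and genotype cannot be told apart.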

How the results depend on the processing

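Counts of calls moved with the libraries and the thresholds, and no named region changed direction under any alternative. Without 1 library at a time, the H3K27ac calls ran from 4401 to 22495 (higher from 3352 to 15756, lower from 1049 to 6739), both congenic lines above from 55 to 424 and below from 18 to 129, 1 line apart from 8125 to 15471, the B6 background from 13878 to 35600 and the D2 background from 7110 to 16345. The lowest values came without replicate 2 of D2 or replicate 3 of B6 and the highest without replicate 1 of D2-13B6. Each of these leaves 1 sample in its line, assumed to vary like the others. H3K9me3 calls ran from 93 (without replicate 1 of D2) to 494, higher from 37 to 125 and lower from 54 to 369. List members called ran from 14 to 53, 2-cell-like genes lower from 3 to 5 and MEK-ERK and WNT genes higher from 3 to 10. Chromosome medians ran from 0.0749 to 0.12 on 11, from -0.0885 to -0.0356 on 13 and from 0.12 to 0.168 on X.

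With all 12 libraries separate there were 21132 calls (14164 higher, 6968 lower), 643 and 213 regions with both congenic lines above and below, 37725 in the B6 and 20626 in the D2 background. The replicate number did not pair the libraries (18 pairs, r from -0.089 to 0.0715, 2 of 12 libraries closest to their own number). With the replicate block the same counts were 20667 (13929 and 6738), 635 and 200, and 20316 in the D2 background, and the pairing is no part of the design. DESeq2 gave 5369 (4905 and 464), 82 and 31, 5250 with 1 line apart, 10034 and 6155; it gave no adjusted p for 23 of the 28 named regions. An adjusted p under 0.01 gave 4574 (3757 and 817), 71 and 17, 7190, 13645 and 7991. A difference of at least 1 gave 1375 (630 and 745), 6 and 15, 5735, 12621 and 6981.

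Lower calls were 5924 with library totals, 4606 with upper quartile scaling, 4246 at a mean of at least 20 counts and 5016 without the level trend. Both congenic lines below numbered 164 with library totals, 47 with median-of-ratios, 135 with upper quartile, 46 with TMM within chromosomes, 35 without a filter, 138 at a mean of at least 20 counts, 50 without chromosome 13 and 154 without the level trend. Both above numbered 121 without the GC trend. Library totals moved the median of all regions to -0.11, and chromosomes 11, 13 and X to 0.00259, -0.16 and 0.0494. Median-of-ratios gave -0.0342 on 13 and 0.175 on X, and a mean of at least 20 counts -0.0383 on 13. List members called were 61 with library totals, 66 without the level trend and 70 with promoter regions summed; MEK-ERK and WNT genes higher were 13 without the GC trend and 12 with regions summed. H3K9me3 calls were 85 in DESeq2 (33 higher, 52 lower), 214 at a mean of at least 20 counts (153 lower) and 186 without a filter (140 lower). The level, GC and chromosome 9 alternatives were chosen after seeing the data. Of 781 values of named regions under the alternatives, 765 kept their call and 16 lost it, at Olfr161, Foxp2 and Asmt. The cause of these shifts was not tested.

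Regions under 2 CPM rest on few reads, and intervals from 2 samples per line cover the spread of libraries only. Each genotype was 1 line.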

Other observations

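Windows of 1 Mb with at least 50 tested regions and the highest shares of H3K27ac calls, chosen after their values were seen, included clusters of duplicated genes. On chromosome 5 from 15 to 16 Mb, which holds Speer4d and related predicted genes, 20 of 61 regions were lower and 0 higher, with medians of -0.39 and -0.58 in the B6 and D2 backgrounds. On chromosome 1 from 85 to 86 Mb, which holds Sp100, Sp110 and Sp140, nuclear body genes with many near copies, 37 of 170 were lower and 2 higher, with medians of -0.32 and -0.40. On chromosome 13 from 66 to 67 Mb, inside the swapped stretch, 51 of 183 were higher and 1 lower, while the medians were 4.03 and -3.72. In contrast, chromosome 1 from 11 to 12 Mb, with Prex2 and A830018L16Rik, had 17 of 77 higher and 0 lower, with medians of 0.34 and 0.31. Of the 10 windows with the highest shares, others also had medians of opposite sign in the backgrounds: 1.71 and -1.05 on chromosome 13 from 68 to 69 Mb, 0.02 and -0.22 on chromosome 5 from 14 to 15 Mb, and 0.34 and -0.07 on chromosome 1 from 77 to 78 Mb.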
